A study of Schizosaccharomyces pombe with 6 samples.

Results

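The 8 genes described here were taken by name from 6878 counted features of Schizosaccharomyces pombe, the fission yeast. All but sks2 encode factors of translation initiation and elongation. The 8 are tif1 (SPAC1006.07), the EF-1 alpha genes tef101 (SPCC794.09c), tef102 (SPAC23A1.10) and tef103 (SPBC839.15c), the EF-2 genes eft201 (SPAC513.01c) and eft202 (SPCP31B10.07), tef3 (SPCC417.08) and sks2 (SPBC1709.05). What was measured is the small RNA recovered with Ago1, an Argonaute protein that carries the guide RNAs of RNA interference. Both groups were of the wild-type strain 975 h+. In the group called 0h here, 3 libraries came from untreated cells growing at 32 °C in EMM, a minimal medium, and in the group called 24h, 3 libraries came from cells held for 24 h in EMM without nitrogen. The beads bind the FLAG peptide, yet no FLAG-tagged Ago1 is listed for this strain, so the link to Ago1 is taken from the labels alone. The labels do not say whether replicates were separate cultures, so p-values measure the spread between these libraries, which may be technical.

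Translation starts when initiation factors load the small ribosomal subunit onto an mRNA, helped by eIF4A, an RNA helicase that unwinds the leader of the message. EF-1 alpha then brings each charged tRNA to the ribosome, EF-2 moves the ribosome on by a codon, and the fungal factor eEF3 is needed in every round of elongation. In fission yeast the best known Argonaute small RNAs come from centromere repeats and guide heterochromatin, and these mRNAs are among the abundant messages of growing cells. RefSeq described 7 of the 8 genes as translation factors, whereas sks2 was described as a ribosome-associated molecular chaperone, an Hsp70-type protein that binds nascent chains.

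The EF-1 alpha and EF-2 genes are near-identical copies, so few short sequences belong to only 1 of them. A read that fits more than 1 place equally well is usually given low mapping quality, and low mapping quality had removed 90.3 to 96.4% of each library's aligned reads from the counts. In the RefSeq sequence of assembly ASM294v3, the 3 EF-1 alpha coding sequences were each 1383 bases long and differed at 25 positions, of which 23 (92.0%) lay at the third base of a codon. In pairs they were 98.8% (tef101 and tef102), 98.6% (tef101 and tef103) and 98.9% (tef102 and tef103) identical. The stretch where they differ most, bases 1291 to 1350 counted from the first base of the start codon, is shown because reads from such stretches can be assigned to 1 gene. Capitals mark the 7 positions that are not the same in the 3 genes.
tef101: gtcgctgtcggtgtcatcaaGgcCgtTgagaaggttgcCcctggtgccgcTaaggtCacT
tef102: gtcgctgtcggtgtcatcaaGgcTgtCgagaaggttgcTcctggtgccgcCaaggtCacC
tef103: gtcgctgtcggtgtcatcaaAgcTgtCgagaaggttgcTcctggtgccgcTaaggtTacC

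Elsewhere the 3 genes shared runs without a difference, the longest being 218 bases from base 520 to base 737. Its first 60 bases, the same in tef101, tef102 and tef103, are shown as the kind of sequence where a read cannot be given to 1 copy.
EF-1 alpha, shared: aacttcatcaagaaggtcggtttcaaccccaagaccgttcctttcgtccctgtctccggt

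The EF-2 genes were closer still. Their coding sequences of 2529 bases differed at 11 positions (99.6% identical), 10 of them at the third base of a codon, and the longest shared run was 587 bases. The first 60 coding bases held 4 of the differences, again in capitals, and are shown because no other stretch of that length held more.
eft201: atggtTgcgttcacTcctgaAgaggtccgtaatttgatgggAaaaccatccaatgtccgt
eft202: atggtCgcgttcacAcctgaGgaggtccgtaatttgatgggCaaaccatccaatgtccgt

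To measure what could be placed, every window of 25 bases of each RefSeq transcript was looked up in the whole genome on both strands, 25 being the middle of the 20 to 30 nucleotides cut from the gel. All 1478 windows of tif1 and all 3283 of tef3 occurred once, as did 2075 of the 2092 windows (99.2%) of sks2. Of the EF-1 alpha windows, 380 of 1538 (24.7%) in tef101, 242 of 1429 (16.9%) in tef102 and 304 of 1495 (20.3%) in tef103 occurred once. Of the EF-2 windows, 263 of 2595 in eft201 and 277 of 2609 (10.6%) in eft202 did. Among 5103 protein-coding features the median share was 100%, and in 110 of them it was under 50%. With windows of 20 and 30 bases the shares of the 5 paralogs were between 9.12 and 26.4%.

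**Figure D1:**
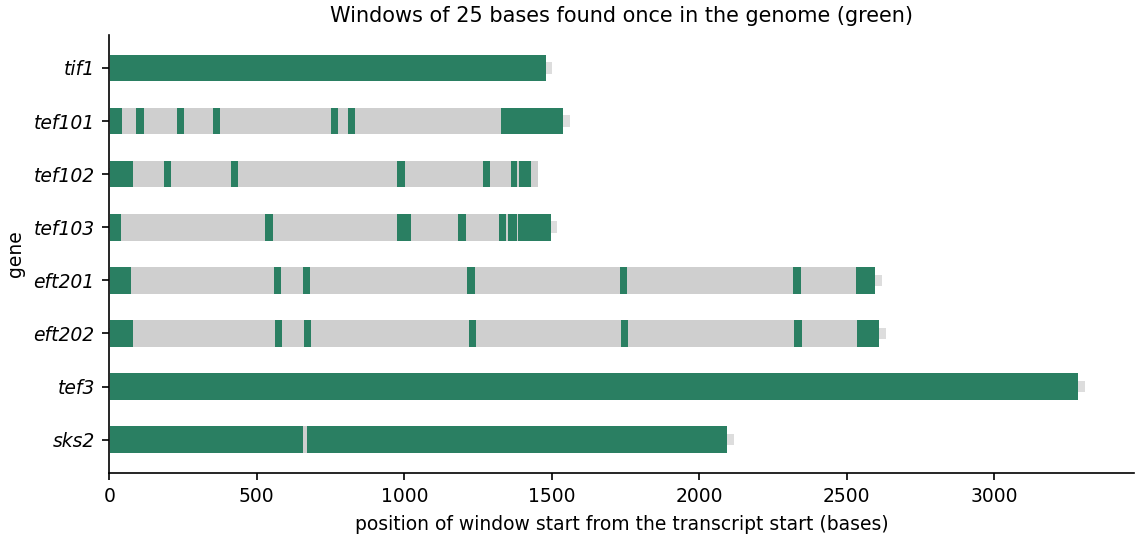
Each bar is the RefSeq transcript of 1 gene, with the coding part thick and pale and the start of every 25-base window found once in the genome in green, against distance from the transcript start in bases. Green covers tif1 and tef3 whole and sks2 nearly so, whereas in the EF-1 alpha and EF-2 genes it is limited to the ends and a few short blocks.

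Inside the coding sequence the share of windows found once was 14.8% in tef101, 12.7% in tef102, 12.4% in tef103 and 6.91% in each of eft201 and eft202. Every window reaching into an untranslated end of these 5 transcripts occurred once. The untranslated ends therefore held 179 of the 380 such windows of tef101, 70 of the 242 of tef102, 136 of the 304 of tef103, 90 of the 263 of eft201 and 104 of the 277 of eft202. The transcript ends are those of RefSeq, and may differ from those the authors counted with. In RefSeq the coding sequence of tef102 runs to the last base of its transcript, so no untranslated end follows its stop codon. The other EF-1 alpha and EF-2 transcripts have such an end. The windows of tef102, and its levels per length and per window below, rest on that annotation. How far shared sequence set the counts below was not tested.

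The libraries held 48040 to 145861 reads assigned to features at 0h and 54393 to 758789 at 24h. The 8 genes took 243, 561 and 627 of these reads at 0h (replicates 1, 2 and 3) and 692, 3664 and 6303 at 24h. As a share of assigned reads that was 0.506, 0.498 and 0.430% at 0h and 1.27, 1.47 and 0.831% at 24h, so every 24h library lay above every 0h library. As a share of the reads in protein-coding features it was 1.21, 1.06 and 0.946% at 0h and 1.53, 1.73 and 1.03% at 24h, and here 24h replicate 3 lay within the range of the 0h libraries.

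For tif1, the gene of eIF4A, 30, 74 and 58 reads were counted at 0h and 76, 453 and 874 at 24h. Scaled by TMM, which centres the typical feature on no change, its CPM values (counts per 1e6) were 903, 781 and 494 at 0h and 1135, 1141 and 1054 at 24h. The 24h libraries all lay above the 0h libraries, and 0h replicate 3 was the lowest of the 6. The log2 fold change was 0.63 (SE 0.39, interval of 95% from -0.23 to 1.48), with an adjusted p of 0.258, so it missed the threshold of 0.05 (edgeR, quasi-likelihood, adjusted by Benjamini-Hochberg over 1716 features).

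Among the EF-1 alpha genes, tef103 had the largest difference of the 7 tested genes. It had 11, 38 and 99 reads at 0h and 90, 454 and 1065 at 24h, or 331, 401 and 844 CPM at 0h and 1344, 1143 and 1284 CPM at 24h. The groups did not overlap, although 0h replicate 3 was more than the sum of the other two 0h libraries in CPM. The log2 fold change was 1.23 (SE 0.44, interval of 95% from 0.26 to 2.19) and just missed the threshold (adjusted p = 0.0617, edgeR). It passed without 0h replicate 3 (1.69, adjusted p = 0.0277, edgeR) and in DESeq2 (1.37, adjusted p = 0.0332). Without each other library the adjusted p of edgeR lay between 0.0729 and 0.244.

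The paralogs differed less between the groups. For tef101, 14, 72 and 75 reads at 0h and 58, 420 and 688 at 24h gave 422, 760.2 and 639 CPM at 0h and 866, 1058 and 829.5 CPM at 24h, without overlap. For tef102, 8, 31 and 18 reads at 0h and 26, 120 and 301 at 24h gave 241, 327 and 153 CPM at 0h and 388, 302 and 363 CPM at 24h, and 24h replicate 2 lay within the 0h range. Neither passed, with log2 fold changes of 0.58 (SE 0.38, interval of 95% from -0.26 to 1.41, adjusted p = 0.283, edgeR) for tef101 and 0.54 (SE 0.36, interval of 95% from -0.25 to 1.33, adjusted p = 0.285, edgeR) for tef102.

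Because the paralogs are counted in the same library, their shares of the family's reads do not depend on scaling. The share of tef103 was 33.3% of 33 reads, 27.0% of 141 and 51.6% of 192 in the 0h libraries. Wilson intervals of 95% ran from 19.8 to 50.4%, from 20.3 to 34.8% and from 44.5 to 58.5%. At 24h it was 51.7% of 174 reads, 45.7% of 994 and 51.9% of 2054, with intervals from 44.3 to 59.0%, from 42.6 to 48.8% and from 49.7 to 54.0%. The shares of 0h replicate 3 and of the 24h libraries lay together, and those of the other two 0h libraries lower.

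The mean share of tef103 was 37.3% ± 12.8 at 0h and 49.7% ± 3.53 at 24h, that of tef101 44.2% ± 6.19 and 36.4% ± 5.10, and that of tef102 18.5% ± 8.01 and 13.9% ± 1.58 (SD, n = 3 each). Permuting the libraries exactly (two-sided) gave p = 0.20 for tef103, p = 0.20 for tef101 and p = 0.40 for tef102, and the smallest p that 3 against 3 libraries allow is 0.10. Only the test of tef102 was part of the plan for these shares. The groups overlapped for all 3 genes. For comparison, tef103 held 32.8% of the family's windows found once in the genome, tef101 41.0% and tef102 26.1%.

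Few reads were assigned to the EF-2 genes. For eft202, 6, 12 and 13 reads at 0h and 9, 47 and 109 at 24h gave 181, 127 and 111 CPM at 0h and 134, 118 and 131 CPM at 24h. All 3 of the 24h values lay inside the 0h range, and the log2 fold change was -0.04 (SE 0.34, interval of 95% from -0.79 to 0.71, adjusted p = 0.979, edgeR). For eft201, 6, 6 and 3 reads at 0h and 4, 33 and 53 at 24h gave 181, 63.3 and 25.6 CPM at 0h and 59.7, 83.1 and 63.9 CPM at 24h, again overlapping.

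The gene eft201 was the 1 member that did not pass the filter on low counts in the main fit, so that fit does not test it. Without the filter its log2 fold change was 0.41 (adjusted p = 0.705, edgeR), and in DESeq2 it was 0.07 (adjusted p = 0.988). With 1 library left out, eft201 passed the filter unless that library was 24h replicate 2. It was then 0.70, 0.05 and -0.59 without 0h replicates 1, 2 and 3, and 0.19 and 0.20 without 24h replicates 1 and 3. The adjusted p of these fits lay between 0.367 and 0.968 (edgeR). Of the EF-2 reads, eft202 took 66.0% ± 15.6 at 0h and 65.1% ± 5.57 at 24h (SD, n = 3, two-sided exact permutation p = 1.0), from 12 to 18 reads per library at 0h and 13 to 162 at 24h. It held 51.3% of the windows of the pair found once in the genome.

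The gene of eEF3, tef3, gave the most reads of the 8. They numbered 101, 198 and 221 at 0h and 304, 1638 and 2401 at 24h, or 3042, 2091 and 1884 CPM at 0h and 4540 (4539.7), 4124 and 2895 CPM at 24h. The groups overlapped, since 24h replicate 3 was below 0h replicate 1. The log2 fold change was 0.72 (SE 0.45, interval of 95% from -0.28 to 1.72, adjusted p = 0.262, edgeR).

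The chaperone gene sks2 was the other member with a negative value. It had 67, 130 and 140 reads at 0h and 125, 499 and 812 at 24h, or 2018, 1373 and 1193 CPM at 0h and 1867, 1256 and 979 CPM at 24h. Its groups overlapped widely, and the log2 fold change was -0.16 (SE 0.43, interval of 95% from -1.11 to 0.79, adjusted p = 0.816, edgeR).

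**Figure D2:**
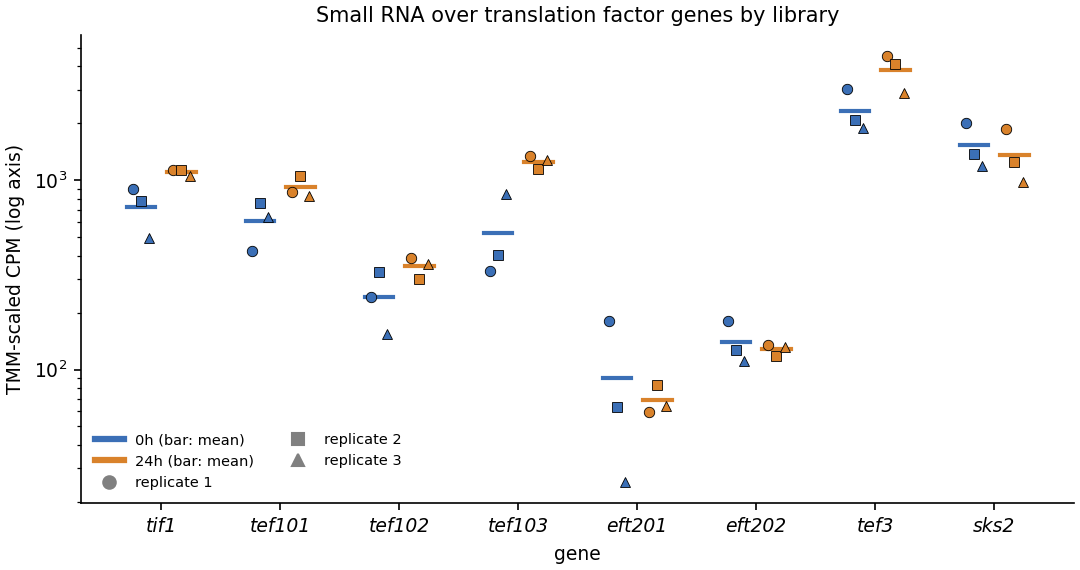
TMM-scaled CPM of each gene on a log axis, with 1 point per library (shape: replicate) and a bar at the mean of each group of 3. The 24h points of tif1, tef101 and tef103 all lie above the 0h points, and those of the other 5 genes overlap them.

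Levels of different genes were compared per length. Per 1000 bases of transcript (CPM, mean ± SD, n = 3), sks2 (722 ± 205) and tef3 (707 ± 187) led at 0h, then tif1 (484 ± 140), tef101 (389 ± 110) and tef103 (346 ± 183). Lower were tef102 (166 ± 59.8), eft202 (52.9 ± 13.9) and eft201 (34.3 ± 30.9). The ranges of neighbours in this order overlapped except between tef102 and eft202. On that scale at 24h the order was tef3 (1165 ± 259), tef103 (828 ± 67.9), tif1 (739 ± 32.3), sks2 (646 ± 215), tef101 (588 ± 78.4), tef102 (242 ± 30.5), eft202 (48.6 ± 3.24) and eft201 (26.3 ± 4.76). There the ranges of neighbours were apart from tef101 downwards and overlapped above it.

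Divided instead by the number of windows found once in the genome, the EF-1 alpha genes came first. At 24h tef103 stood at 4135 ± 339, tef101 at 2415 ± 322 and tef102 at 1451 ± 183 CPM per 1000 such windows (SD, n = 3), with no overlap between tef103 and tef101 or between tef101 and tef102. Below them on the same scale were tef3 (1174 ± 261), tif1 (751 ± 32.9), sks2 (659 ± 219), eft202 (462 ± 30.8) and eft201 (262 ± 47.4). Neighbours overlapped between tef102 and tef3, between tif1 and sks2 and between sks2 and eft202. At 0h the order began with tef103 (1728 ± 914), tef101 (1597 ± 451) and tef102 (994 ± 359), and the ranges of all neighbours overlapped.

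**Figure D3:**
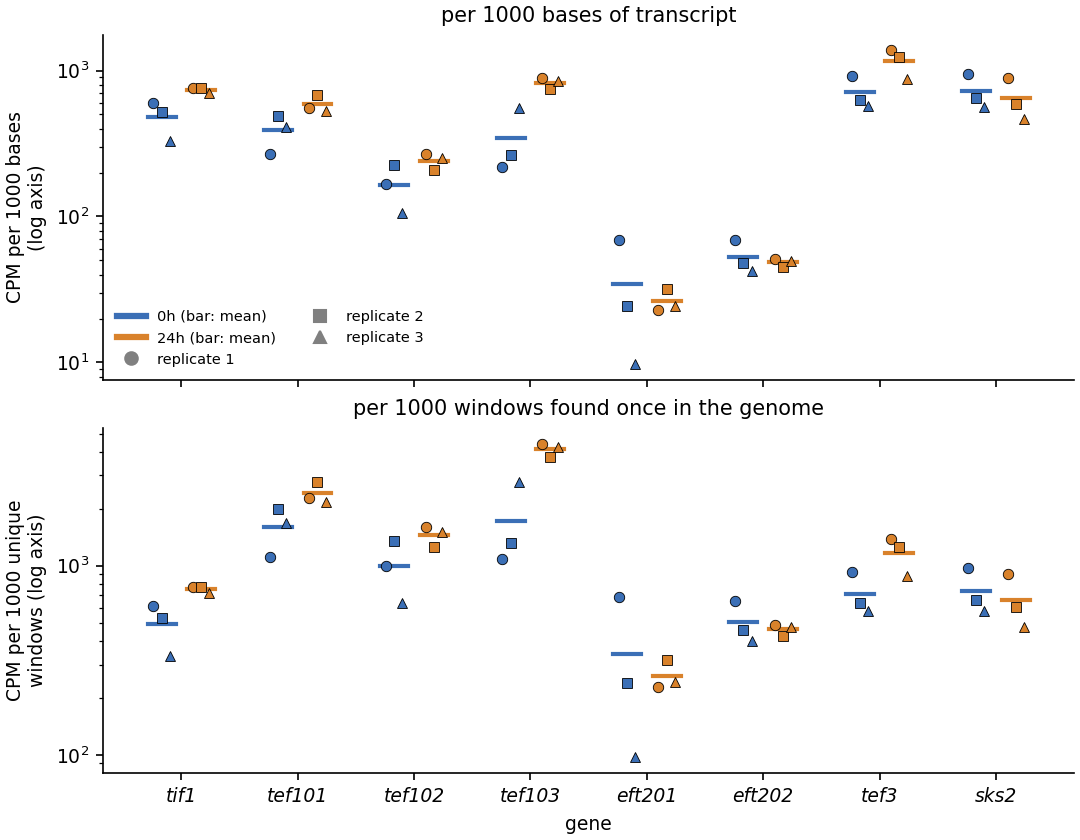
CPM of each gene and library on log axes, per 1000 bases of transcript (top) and per 1000 windows of 25 bases found once in the genome (bottom), with bars at the group means. The EF-1 alpha genes lie below tef3 and sks2 in the top panel at 0h, and they have the 3 highest means at both times in the bottom panel.

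Ranked per window over the 5030 protein-coding features with at least 100 such windows, tef103 was between rank 15 and 33 in the 0h libraries and rank 5 and 6 at 24h. The ranks of tef101 were 19 to 32 and 7 to 16, and those of tef102 28 to 67 and 20 to 28. Of the genes with nearly all windows placed, tef3 was at 46 to 75 and 24 to 52, sks2 at 40 to 74 and 41 to 122, and tif1 at 83 to 176 and 48 to 70. The ranks of tef3 overlapped those of tef102 in both groups, and those of sks2 did so at 0h. These ranks hold only if the counted reads came from windows found once, and the aligner's settings are not known here.

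Between the groups, none of the 7 tested genes passed and 1 of them (tef103) had an unadjusted p under 0.05 in edgeR, while DESeq2 called 1 of the 8, also tef103. Among all 1716 tested features 13.1% were called higher and 12.8% lower, and 668 had an unadjusted p under 0.05 (edgeR). The median log2 fold change of the 7 was 0.58 and that of all tested features -0.02, and 5 of the 7 were positive. Every 24h library lay above every 0h library in CPM for 3 of the 7 genes (tif1, tef101 and tef103), against 24.3% of all tested features. As a share of assigned reads that held for 6 of the 7 (all but sks2), against 42.7%, and as a share of aligned reads for all 7, against 92.3%.

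The share of all features called higher differed between the alternatives under which tef103 was called, at 15.8% with protein-coding features only, 7.72% with no filter, 4.3% in DESeq2, 16.3% with the replicate number as a block and 7.44% without 0h replicate 3. Where none of the genes was called it was 18.4% with a minimum count of 30, 8.75 and 4.86% without 0h replicates 1 and 2, and 9.24, 12.3 and 10.6% without 24h replicates 1, 2 and 3.

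What counts as a change depended on the scaling. With library totals in place of TMM the median of all tested features was 0.69, and 5 of the 7 genes (tif1, tef101, tef102, tef103 and tef3) were called higher, against 33.1% of all tested features. Relative to that median, the median of the 7 was higher by 0.63, close to the 0.59 under TMM. Per aligned read the median of all tested features was 3.55, and all 7 genes were called higher, against 93.9% of all tested features. The 7 had a median of 4.23 there, 0.67 above the median of all tested features.

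In reads per 1e6 aligned reads, the 8 genes together stood at 25.1, 24.99 and 25.8 in the 0h libraries and at 423, 790.2 and 188 in the 24h libraries. The 0h libraries were close to each other, whereas the 24h libraries spread widely. On that scale tef3 went from 9.45 ± 0.851 to 204 ± 142 and sks2 from 6.16 ± 0.653 to 69.4 ± 42.1 (SD, n = 3). The share of aligned reads assigned to any feature moved in the same way, from 0.495 to 0.601% at 0h and from 2.26 to 5.39% at 24h, and its part in these differences was not tested.

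**Figure D4:**
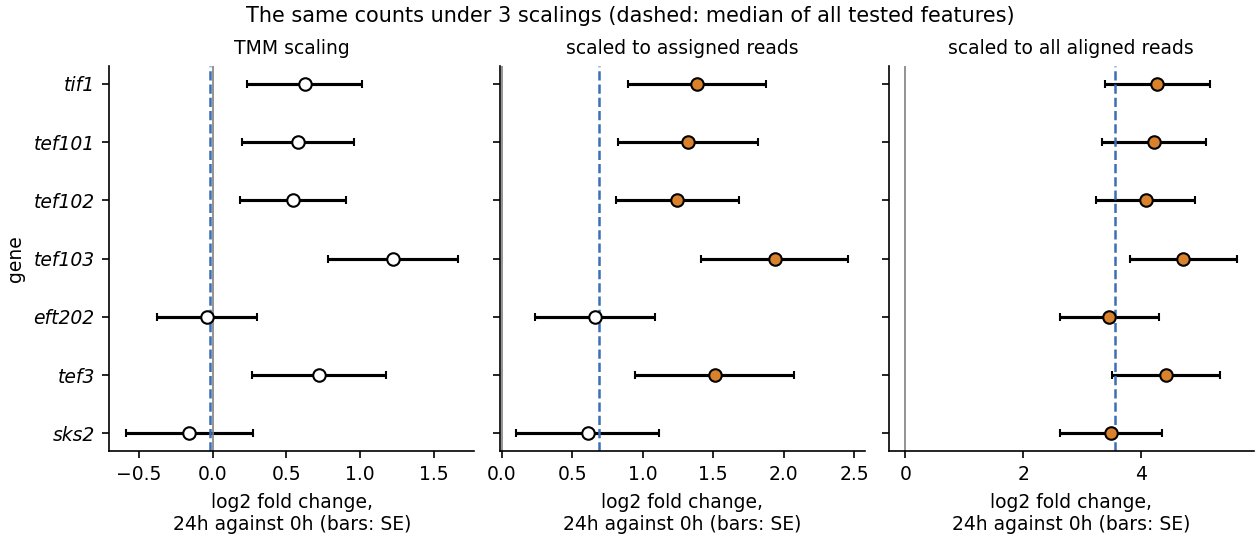
Log2 fold changes of the 7 tested genes with SE, under TMM, library totals (assigned reads) and aligned reads, with a filled point where the adjusted p was under 0.05 and a dashed line at the median of all tested features. The points shift to the right with that line, from -0.02 to 0.69 and 3.55, and the order of the genes changes little.

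The other genes of the pathway were taken as every RefSeq protein-coding gene described as an initiation, elongation or release factor of translation, which also brought in their kinases and modifying enzymes. The description did not mark tuf1, tsf1 and mti2 as mitochondrial, so these stayed in the list. Of its 50 genes 29 were tested, of which 1 (3.45%) was called higher, 1 lower and 27 did not pass, against 13.1% higher and 12.8% lower among all tested features. Their median log2 fold change was 0.01, against -0.02 for all tested features and 0.58 for the 7 genes above.

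The gene that rose was tif11, of initiation factor eIF1A, which helps scanning for the start codon. It had 2, 6 and 5 reads at 0h and 9, 51 and 146 at 24h, from 55.4 ± 11.2 to 146 ± 25.9 CPM (SD, n = 3), a log2 fold change of 1.47 (SE 0.41, adjusted p = 0.0215, edgeR). Leaving out the second 0h library ended the call (adjusted p = 0.0640), as did leaving out the third 0h library (0.122) or the third 24h library (0.0686, edgeR). In DESeq2 it did not pass either (adjusted p = 0.114).

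The gene that fell under TMM was tif211, of the alpha subunit of eIF2, the target of the kinases that slow translation in stress. It had 9, 18 and 27 reads at 0h and 5, 31 and 98 at 24h, from 230.4 ± 40.5 to 90.3 ± 24.2 CPM (SD, n = 3), a log2 fold change of -1.23 (SE 0.34, adjusted p = 0.0211, edgeR). Of the 6 fits with a library left out, the call held in that without 24h replicate 3 (adjusted p = 0.0154, edgeR). Leaving out any 0h library ended it (adjusted p = 0.0523, 0.0528 and 0.0624 for replicates 1, 2 and 3), as did leaving out the first (0.0623) or second (0.0736) 24h library. In DESeq2 it did not pass (adjusted p = 0.194). With library totals it was -0.56 (adjusted p = 0.277, edgeR), and per aligned read the direction turned (2.15, adjusted p = 0.00746, edgeR).

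Next by p were 4 genes that did not pass. The scaffold of the cap-binding complex, eIF4G (tif471), was at 0.95 (SE 0.36, adjusted p = 0.0774) and passed in DESeq2 (1.12, adjusted p = 0.0492), with 470 (469.8) ± 75.2 CPM at 0h and 901 ± 138 at 24h (SD, n = 3). It was also the gene with the highest mean CPM of the list. The eIF5A gene tif51 was at 0.88 (SE 0.38, adjusted p = 0.111), tuf1, of the EF-Tu factor, at -0.89 (SE 0.33, adjusted p = 0.0696), and tif313, of the eIF3m subunit, at -1.08 (SE 0.43, adjusted p = 0.0897, all edgeR). Without 24h replicate 3, tif313 passed at -1.56 (adjusted p = 0.0354, edgeR). The EF-1 gamma gene SPAC29A4.02c, second by CPM, was at 691 ± 154 CPM at 0h and 519.6 ± 90.0 at 24h (SD, n = 3), a log2 fold change of -0.40 (SE 0.36, adjusted p = 0.437, edgeR).

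Ribosomal protein genes, whose mRNAs are the other large class of the translation machinery, are given for comparison. Of 52 tested small-subunit genes none was called higher and 2 lower by edgeR, with 3 at an unadjusted p under 0.05 and a median log2 fold change of -0.12. Of 74 tested large-subunit genes none was called higher and 5 lower by edgeR, with 12 at an unadjusted p under 0.05 and a median of -0.22. Among all tested features 13.1% were called higher and 12.8% lower, and 668 of the 1716 had an unadjusted p under 0.05 (edgeR). DESeq2 called none higher in either class and 1 lower in each. Among the 4165 features with an adjusted p in DESeq2, 179 were called higher and 202 lower. The counts of both classes moved with the scaling. With library totals 5 small-subunit genes were called higher and 1 lower, and 3 large-subunit genes higher and 1 lower, against 33.1% higher among all tested features. Per aligned read 51 small-subunit and 73 large-subunit genes were called higher and none lower by edgeR, against 93.9% higher among all tested features. The difference between these medians and the 0.58 of the 7 genes was not tested.

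**Figure D5:**
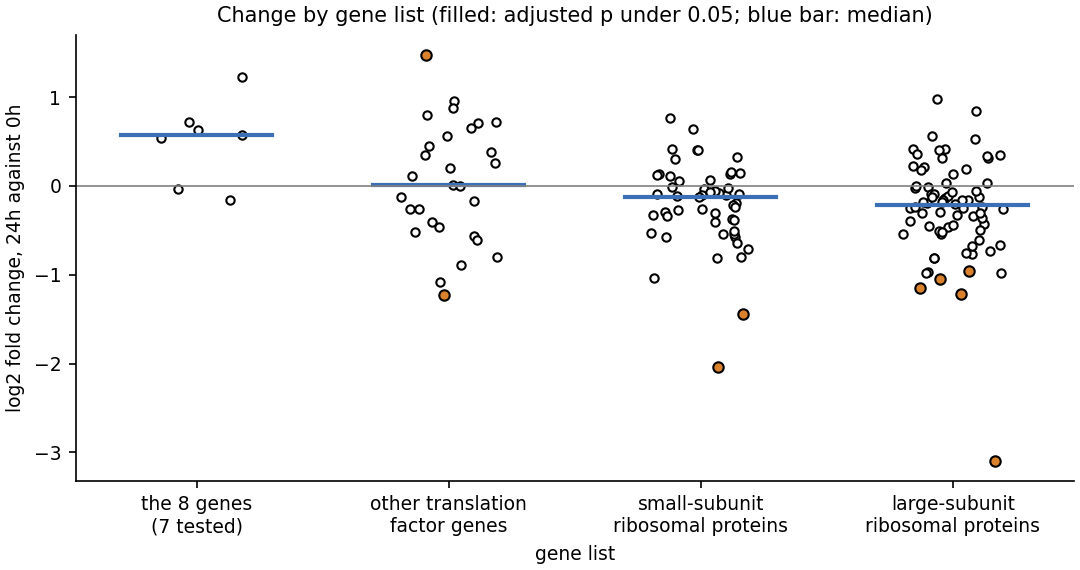
Log2 fold change (24h against 0h, TMM) of every tested gene in 4 lists, with filled points for adjusted p under 0.05 and a blue bar at each median. The medians are 0.58 for the 7 tested genes, 0.01 for the other translation factor genes, -0.12 for small-subunit and -0.22 for large-subunit ribosomal protein genes.

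Among themselves the 7 tested genes did not follow 1 pattern over the 6 libraries. The correlation of log2 CPM was 0.88 between tif1 and tef3, 0.86 between tif1 and tef102 and 0.75 between tef101 and tef103, but -0.70 between tef101 and eft202, as a description of 6 libraries that share the contrast between groups. Averaged over the 7, the centred log2 CPM was -0.17, -0.21 and -0.41 at 0h and 0.41, 0.24 and 0.13 at 24h. The features closest to that average were SPAC2H10.01, a transcription factor gene (r = 0.986), byr1, of a MAP kinase kinase (r = 0.984), msy1, of a mechanosensitive ion channel (r = 0.983), SPCC794.04c, a transporter gene (r = 0.981), and ifh1, of a corepressor in TOR signalling (r = 0.981). Of the 1709 features compared, 95 had r above 0.9, over the same 6 libraries. A correlation leaves out the size of a change. In the order named, their log2 fold changes were 4.98, 1.73, 1.23, 3.26 and 1.97, against a median of 0.58 for the 7 genes (TMM). Reads at 0h (replicates 1, 2 and 3) were few, at 1, 2 and 0 for SPAC2H10.01, 1, 3 and 2 for byr1 and 2, 6 and 4 for ifh1. For msy1 they were 7, 22 and 16, and for SPCC794.04c 8, 20 and 15.

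All of the genes but tef3 share their locus with other features in the RefSeq annotation. Antisense noncoding RNAs annotated over tif1, tef101, eft201, eft202 and sks2, by 53 to 325 bases, were not among the counted features. An antisense noncoding RNA, SPNCRNA.957, lay over 882 bases of tef102, and another, SPNCRNA.1376, over 325 bases of tef103, and both were counted at 0 in all 6 libraries. A count of 0 allows up to 3 reads per library among those that could be placed. Only 16.9% of the 25-base windows of tef102 and 20.3% of those of tef103 occurred once in the genome on either strand. Antisense reads from the rest may not have been counted. The gene efr3 overlapped tef101 by 52 bases on the opposite strand and was at 363 ± 40.9 CPM at 0h and 154 ± 37.6 at 24h (SD, n = 3), with a log2 fold change of -1.21 (SE 0.33, adjusted p = 0.0200, edgeR). That call was lost in DESeq2 (adjusted p = 0.149), with library totals (-0.52, adjusted p = 0.323, edgeR) and with no filter (-0.87, adjusted p = 0.161, edgeR). It was also lost with 0h replicate 2 or 3 left out (adjusted p = 0.0640 and 0.0600) or 24h replicate 1 or 2 (0.0756 and 0.0709, edgeR). Per aligned read the direction of efr3 turned (2.22, adjusted p = 0.00476, edgeR). The gene rbm8 shared 17 bases with tef102 on the same strand and had 0 to 8 reads per library.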

How the data were processed

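Small RNA of 20 to 30 nucleotides was sequenced in 6 libraries, 3 per group. The deposited files hold raw read counts per annotated transcript made by the authors, and cutadapt, Bowtie2 2.1.0, HTSeq 0.6.1 and the genome build ASM294v2 are named per the submitters' processing notes. The options of these tools, and which strand counted as a feature's own, are not known here. HTSeq tally lines, 94.6 to 99.5% of aligned reads, stayed out of totals and tests. Counts were present for 490 (85.4%) of the 574 features enclosed by an opposite-strand feature, which points to counting by strand without settling it. A feature inside an intron of the other could be counted either way.

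Counts were tested over the whole table by edgeR's quasi-likelihood method (version 4.0.16, R 4.3.3), robust and two-sided, with group as the 1 term. Scaling was by TMM, features were kept by filterByExpr (minimum count 10), and p-values were adjusted by Benjamini-Hochberg with a threshold of 0.05. SE was the log2 fold change over the square root of F, and intervals used the t quantile at the fit's degrees of freedom. DESeq2 1.42.0 was an alternative. The fit was tested on simulated data, where it missed most small changes and found most large ones. Finding most of the largest was a condition for going on, and these were larger than the change of any tested member under TMM. Both groups were simulated from the same mean levels, so a difference in composition between the groups was not part of it. Family shares were compared by two-sided exact permutation tests with scipy 1.17.1. Wilson intervals and floors cover counting error only, since reads had no molecular identifiers. The intervals of log2 fold changes also take in the spread between libraries. No pair of replicate libraries agreed within sampling noise.

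Sequences, names, lengths and overlaps came from RefSeq (ASM294v3), which matched 6705 of 6878 IDs and all 8 genes. The builds differ, so no genome coordinates are given. The genes and lists were chosen with earlier results of these data known. The naming rule took all 8 genes, of the other factors the 6 with the smallest p and the 2 highest by CPM, and the 5 features most like the average of the tested genes (prior count 2, mean of at least 10 CPM).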

Additional observations from a re-analysis of the deposited data

How the results depend on the processing

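The number of the 8 genes called higher at 24h was 0 under TMM, 5 with library totals, 7 per aligned read, and 1 with protein-coding features only, with no filter, in DESeq2 and with the replicate number as a block. It was 0 to 1 without each library in turn. In each case with 1 call the gene was tef103, at 1.19, 1.54, 1.37 and 1.32, and 1.69 without 0h replicate 3. With RLE size factors and with a minimum count of 30 it was 0 as under TMM. At that minimum 6 of the 8 genes were tested, without eft201 and eft202. Among all tested features 13.1% were called higher with RLE size factors and 18.4% with a minimum count of 30.

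Of the other translation factor genes, 1 was called higher under TMM, 10 with library totals, 29 per aligned read, 0 with a minimum count of 30 and 3 with no filter. Of the 29 tested, 34.5% were called with library totals and 100% per aligned read, against 33.1 and 93.9% of all tested features. With a minimum count of 30 only 8 of these genes were tested, and neither tif11 nor tif211 was among them. There 18.4% of all tested features were called higher. With no filter all 50 were tested, and 7.72% of all tested features were called higher. The number of these genes called higher was 0 to 1 without each library in turn. The number called lower was 1 under TMM, 0 with library totals, per aligned read, with a minimum count of 30, with no filter and in DESeq2, and 0 to 2 without each library in turn.

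Directions turned for eft202 (-0.04; 0.66 with library totals, 3.46 per aligned read, 0.29 with no filter, 0.0967 in DESeq2) and for sks2 (-0.16; 0.61, 3.49, 0.21 and 0.0187). Without each library in turn eft202 ran from -0.26 to 0.0869, the latter with the first 0h library left out, and was 0.0317 with the second 24h library left out, and sks2 ran from -0.38 to 0.0661. Per aligned read tif211 (2.15), tuf1 (2.57), tif313 (2.18), SPAC29A4.02c (3.29, and 0.38 with library totals) and efr3 (2.22) also turned. Without each library in turn the change of tif1 ran from 0.34 to 0.78, of tef101 from 0.38 to 0.77, of tef102 from 0.19 to 0.91, of tef103 from 1.00 (0.996) to 1.69 and of tef3 from 0.52 to 0.94.

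In percentage points (24h less 0h), the share of tef102 among EF-1 alpha reads differed by -4.64 (-9.22 to -1.79 without each library in turn), that of tef103, added after seeing the data, by 12.5 (7.30 to 19.6), and that of eft202 among EF-2 reads by -0.884 (-8.87 to 6.75). Paired by replicate number these differences are the same, with exact sign permutation p of 0.50, 0.25 and 1.0, where 0.25 is the smallest possible. Same-numbered libraries had correlations of their deviations of 0.0612, 0.151 and 0.175, not all over 0.1. Every library correlated best with its own number, a hint from the data and not from the design. The block moved the higher calls over all features from 224 to 279. With 12 to 18 EF-2 reads in each 0h library, a difference in the EF-2 genes was hard to detect at this depth.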
